A study of Mus musculus with 24 samples.

Results

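The 53 nuclear genes examined here encode subunits of the 5 complexes of the mitochondrial respiratory chain, and their mRNA was followed in mouse bone marrow-derived macrophages (BMDMs) with and without the aryl hydrocarbon receptor (AhR), before and after lipopolysaccharide (LPS). The members were listed by gene name, with earlier results of these data known. They comprised 32 genes of complex I, 4 of complex II, 6 of complex III, 9 of complex IV and 2 of complex V. Ndufa4, named for complex I and counted there throughout, is now known to bind complex IV. All 53 were found among the 55421 genes of the count table, all 53 passed the filter on low counts that left 16593 genes, and they lay on 18 chromosomes.

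The study asked whether the AhR takes part in the control of eicosanoids, lipid mediators that alveolar macrophages make, and the respiratory chain genes were measured in the same libraries. Bulk polyA RNA-seq was performed on 24 libraries, 6 in each of 4 groups: WT and AhR-KO BMDMs, unstimulated or LPS-stimulated. Bone marrow of C57/B6/J wildtype mice or of mice with the germline null allele B6.129-Ahrtm1Bra/J was grown with 10 ng/ml GM-CSF and 2 ng/ml TGF-β, which all 4 groups received. Stimulated cultures had 97 EU/ml of LPS from day 6 for 24 h, and the protocol, which makes no distinction between the groups, ends with 5 µM of the Ca2+ ionophore A23187 for 10 min. The study's methods describe mice of both sexes, matched for age and sex. Here the summed counts of 4 Y-linked genes were 2 to 4 in libraries 34 and 38, both WT, and 8596 to 15082 in the other 22, so the sequenced genotypes were not balanced in this respect. Each group is described as 6 separate animals of 1 experiment, and the labels do not name the animal behind a library. The p-values below measure the spread between these 6 libraries per group.

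The respiratory chain sits in the inner mitochondrial membrane. Complex I (NADH dehydrogenase) and complex II (succinate dehydrogenase) feed electrons into ubiquinone, complex III passes them to cytochrome c, complex IV reduces oxygen to water, and complex V makes ATP from the proton gradient that complexes I, III and IV build. Most subunits are encoded in the nucleus and a few in the mitochondrial DNA. In macrophages, LPS is known to shift metabolism from oxidative phosphorylation towards glycolysis, and succinate oxidation by complex II has been tied to the inflammatory response.

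Ahrr, the AhR repressor and a direct target of the receptor, had medians of 46.7 and 61.6 CPM (counts scaled to library size with TMM factors, a normalization that balances libraries on the bulk of their genes) in unstimulated and LPS-stimulated WT BMDMs and of 0.443 and 0.200 in the AhR-KO groups, and the genotypes did not overlap. Ahr itself was lower in unstimulated AhR-KO BMDMs (median 7.40 against 30.7 CPM) but higher after LPS (39.2 against 18 CPM). Its counts cover the whole gene, and the deleted part is not given in the sources used here, so Ahr could not check the labels, whereas Ahrr separated them. The summed level of 8 macrophage markers was 15323 to 29891 CPM in unstimulated WT, 21088 to 35151 in unstimulated AhR-KO, 12811 to 28688 in LPS-stimulated WT and 19080 to 20499 in LPS-stimulated AhR-KO libraries. In the same order of groups, 7 alveolar macrophage markers summed to 6129 to 8821 CPM, 7019 to 9760, 3063 to 7086 and 5822 to 8831, and 8 neutrophil markers to 1592 to 12651 CPM, 239.5 to 796, 711 to 8401 and 135 to 1017. Likewise 7 dendritic cell markers summed to 35.5 to 110 CPM, 9.28 to 15.7, 563 to 2443 and 100.4 to 893, and 6 mast cell and basophil markers to 6.13 to 23.5 CPM, 1.98 to 4.19, 16.1 to 52.2 and 4.14 to 11.4. The sum over 6 proliferation markers was 465 to 707 CPM without LPS and 15.2 to 38.2 CPM with it, and 6 T and B cell markers stayed at or below 0.481 CPM. The part of these shifts in the results below was not tested, and in bulk RNA fewer cells of a type cannot be told apart from less RNA per cell.

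The 3 promoter windows printed here are examples and were not picked to be typical of the members. Ndufs8, an iron-sulfur subunit of complex I, and Cox5a, a subunit of complex IV, fell with LPS in both genotypes, and Ndufb6, an accessory subunit of complex I, holds the 3 motifs best known from respiratory chain promoters. Each is the 250 bases before the annotated start in RefSeq on GRCm38.p6 (mm10), 5′ to 3′ on the gene's strand, none overlapping an annotated exon. Capitals mark matches on either strand to the letters TGCGCA (core of the nuclear respiratory factor NRF1 site), CCGGAAG (ETS factors such as GABP), GGGCGG (Sp1), ATGGCG (YY1), AAGGTCA (half-site of estrogen-related receptors), GCGTG (AhR core) or CACGTG (E-box). The windows are chr19:3912775-3913024 (minus strand), chr9:57520982-57521231 (plus strand) and chr4:40279422-40279671 (minus strand).
Ndufs8: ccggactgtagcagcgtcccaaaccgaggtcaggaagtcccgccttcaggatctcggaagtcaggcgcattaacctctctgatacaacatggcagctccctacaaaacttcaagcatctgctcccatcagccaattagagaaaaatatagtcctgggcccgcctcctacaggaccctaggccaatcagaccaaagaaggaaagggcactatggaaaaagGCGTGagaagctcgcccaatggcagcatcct
Cox5a: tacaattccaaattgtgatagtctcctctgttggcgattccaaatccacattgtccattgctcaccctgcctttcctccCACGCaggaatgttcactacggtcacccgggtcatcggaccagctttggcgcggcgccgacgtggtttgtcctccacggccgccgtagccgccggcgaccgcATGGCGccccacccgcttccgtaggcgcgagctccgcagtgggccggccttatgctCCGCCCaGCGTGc
Ndufb6: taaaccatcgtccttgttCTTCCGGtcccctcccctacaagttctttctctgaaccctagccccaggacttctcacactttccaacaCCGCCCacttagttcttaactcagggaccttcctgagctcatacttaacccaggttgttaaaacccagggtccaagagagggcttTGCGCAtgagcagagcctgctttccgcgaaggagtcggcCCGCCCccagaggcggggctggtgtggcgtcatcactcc
Windows of this length were at hand for 43 members, of which 10, the 3 printed ones among them, held no annotated exon base. Among the 43, 25.6% held the NRF1 core, against 6.66% of the 27025 windows of all genes. The ETS letters stood in 16.3% against 7.05%, Sp1 in 41.9% against 32.9%, YY1 in 9.30% against 5.77%, the half-site in 6.98% against 4.05%, the AhR core in 41.9% against 28.2% and the E-box in 4.65% against 6.05%. These are counts of letters in a window and not bound sites, and most members' windows include exon bases. Single members held 0 to 4 of the 7 motifs. The Ndufs8 window held the AhR core alone, the Cox5a window the Sp1, YY1 and AhR letters, and the Ndufb6 window those of NRF1, ETS and Sp1.

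The levels of the members differed widely within complexes as well as between them. They were taken per kilobase of principal transcript as the mean over all 24 libraries. The median over members was 97.4 CPM for complex I, 106 for complex II and 167 for complex III. It was 291 for complex IV and 660 for the 2 members of complex V. From the lowest to the highest member, levels ranged 42.5-fold in complex I and 20.4-fold in complex IV. The range was 4.50-fold, 5.36-fold and 1.68-fold in complexes II, III and V. Cox4i1, an early-assembling subunit of complex IV, was the highest at 998 CPM per kb, and Ndufb4, an accessory subunit of complex I, the lowest at 7.81. By group median after LPS, Atp5b lay above Cox4i1 (755 against 692 in WT, 841 against 732 in AhR-KO). Ndufb2 lay below Ndufb4 in the same 2 groups (5.13 against 5.20 in WT, 4.81 against 6.41 in AhR-KO). Atp5b (828) and Atp5a1 (493), which form the catalytic head of ATP synthase, both lay above every member of complexes I to III. In the other complexes the extremes per kb were Ndufb8 (332) in complex I, Sdhd (306) and Sdha (67.9) in complex II, Uqcrh (391) and Uqcrb (73.0) in complex III, and Cox5b (48.9) at the low end of complex IV. Not all held in each group. By group median, Uqcrfs1 lay above Uqcrh in LPS-stimulated AhR-KO BMDMs (345 against 278), and Sdhc below Sdha in unstimulated ones (80.1 against 91.5). A part of the transcript of 13 members, among them Uqcrb, Ndufb4, Ndufb8, Cox6c and Cox7b, is at least 95% identical over at least 100 bases to another annotated gene, so that uniquely aligned reads can undercount them and their levels are uncertain.

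The levels of the members moved together from library to library in all 4 groups. Total counts were 45106052 to 76992663 per library. For each library the length slope was taken as the slope of log2 CPM, minus the gene's mean over libraries, on log2 gene length, so that a negative slope marks a library with relatively more counts in short genes. It ran from -0.36 to 0.25 over the 24 libraries. The lowest values were those of library 19 (AhR-KO, unstimulated, -0.36) and library 33 (WT, unstimulated, -0.33), and between groups the mean slope differed by -0.040 to 0.055, with exact two-sided permutation p of 0.634 to 0.989 over 4 comparisons (adjusted p = 0.989 for each; the smallest p that 6 against 6 can give is 0.00216). The slope also followed the run, a set of 8 consecutive library numbers with 2 libraries of each group, which this permutation did not take into account. All 8 libraries of run 2 lay at 0.129 to 0.247, above every library of runs 1 and 3 (highest 0.0784). Within the runs the group differences in mean slope were -0.16 to 0.16, and for each of the 4 comparisons they had both signs. The members are short: the median of their principal transcripts was 875 bases (419 to 4371), and 48 of 53 lay below the median of 2394 bases over tested genes.

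**Figure D1:**
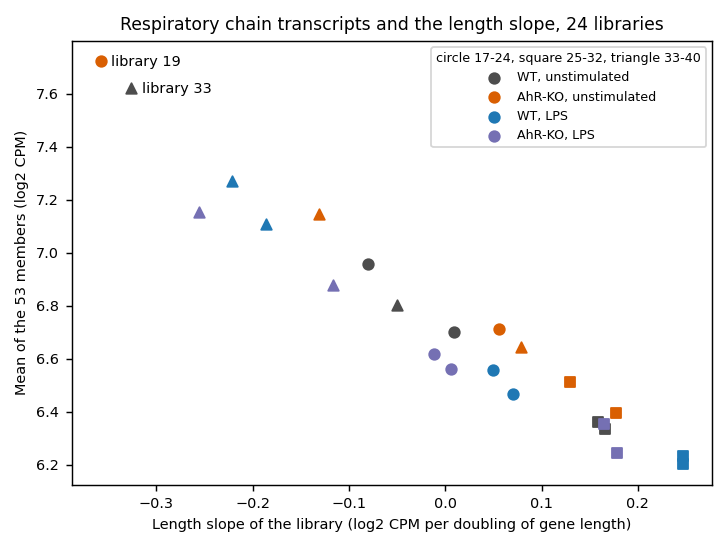
Mean log2 CPM of the 53 members (y axis) against the length slope of each of the 24 libraries (x axis), each point 1 library, coloured by group. The mean level falls from 7.72 to 6.20 as the slope rises, libraries 19 and 33 stand at the upper left, and the 4 groups are interleaved.

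Across the 24 libraries the mean log2 CPM of the members went from 6.20 to 7.72 and followed the length slope with Pearson's r of -0.97 and Spearman's rho of -0.97 (r = -0.97 without the 2 libraries farthest from the median slope). Both axes come from the same libraries, and the members are among the genes that define the slope, so this describes the libraries and is no test. Within groups, 51 of 53 members fell as the slope rose, with a median r of -0.98. The exceptions were Ndufa10, an accessory subunit of complex I (r = 0.97, 0.47 log2 units higher per 0.1 of slope), and Sdha, the flavoprotein of succinate dehydrogenase (r = 0.88). Ndufv3 followed the slope least (r = -0.26). The spread of a member within a group, as a standard deviation of log2 CPM, had a median of 0.51 and came down to 0.11 once the slope was taken out. An offset for merged exon length in each library left r at -0.95, and one for the principal transcript left it at -0.93. Each comparison is therefore given from a fit with no covariate and from a fit with the length slope as a covariate, for which the biological coefficient of variation over all genes was 49.1% and 25%.

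In the fit with no covariate, 6 of 53 members fell and none rose with LPS in WT BMDMs, where 18.3% of all tested genes fell and 19.7% rose. In AhR-KO BMDMs 10 members fell and Ndufs4 rose, against 22.6% and 22.1% of tested genes. Complex I, with 32 of the 53 members, held 5 of the 6 and 7 of the 10, or 15.6% and 21.9% of its genes. Whether the shares of members differ from those of all tested genes was not tested. The median log2 change of the members was -0.08 in WT and -0.17 in AhR-KO BMDMs (0.03 and -0.03 over all genes). Both medians rested on 1 library, being 0.14 in WT without library 33 and 0.07 in AhR-KO without library 19. With the run as a factor, 11 members fell and 1 rose in WT (23.8% and 23.9% of tested genes), and 17 fell and 2 rose in AhR-KO (28.9% and 25.3%). Without libraries 34 and 38, 5 fell and none rose in WT (16.5% and 17.7% of tested genes), and 9 fell and 1 rose in AhR-KO (22.5% and 22%). Scaling to total library size called 21 members in WT and 32 in AhR-KO, all lower, where 43.7% and 52.5% of tested genes were called in either direction. A length offset on principal transcripts called 10 and 18 members (40.6% and 47.1% of tested genes). In WT the 6 were Ndufs1, Ndufs8, Ndufb10, Ndufv3, Ndufa5 and Cox5a, and in AhR-KO Ndufa4, Ndufb5, Sdha and Uqcrb joined them. The calls of Ndufa5 were lost in 14 of the 24 fits without 1 library in WT and in 6 in AhR-KO, that of Ndufb5 in 8, and that of Ndufa4 without library 19 or 31. With DESeq2 size factors, no filter or limma-voom the calls of Ndufa5 and Ndufb5 were lost too. A length offset on merged exons also lost that of Ndufb5. Only the 3 members Ndufs1, Ndufb10 and Ndufv3, all in AhR-KO BMDMs, fell past 2-fold, as did 15.7% of tested genes there and 11.8% in WT. The 2 comparisons share no library.

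Ndufs1 encodes the largest core subunit of complex I, which carries iron-sulfur clusters of the electron path (chr1:63143596-63176833, minus strand). It was at 87.2 to 116 CPM (median 97.3) in unstimulated WT, at 93.9 to 126 (median 102) in unstimulated AhR-KO, at 51.4 to 65.3 (median 56.5) in LPS-stimulated WT and at 45 to 59.1 (median 51.1) in LPS-stimulated AhR-KO BMDMs. Stimulated and unstimulated libraries did not overlap in either genotype. The log2 change with LPS was -0.77 (SE 0.11, edgeR, adjusted p = 2.9e-06) in WT and -1.05 (SE 0.11, adjusted p = 1.8e-08) in AhR-KO, and within the 3 runs it was -0.70 to -0.81 and -0.99 to -1.11. With a length offset on merged exons the WT change was -0.83 (SE 0.36, adjusted p = 0.0755), as large but not called, and with the length slope it was -0.73 (adjusted p = 7.3e-11).

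Ndufs8, an iron-sulfur subunit that hands electrons towards ubiquinone, was at 55.1 to 115 CPM (median 71.3) in unstimulated and 31.1 to 58.9 (median 41.3) in LPS-stimulated WT BMDMs. In AhR-KO it was at 47.8 to 107 (median 58.3) and 23.4 to 48.1 (median 34.2). In both genotypes the highest stimulated library lay slightly above the lowest unstimulated one. The log2 changes were -0.83 (SE 0.23, adjusted p = 0.0065) and -0.94 (SE 0.23, adjusted p = 0.0020). Its promoter window is printed above.

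Ndufb10, an accessory subunit of the membrane arm, was at 64.7 to 114 CPM (median 91.7) and 44.3 to 69.6 (median 56.8) in WT without and with LPS, and at 68.3 to 154 (median 87.0) and 42.7 to 58.3 (median 47.1) in AhR-KO. The AhR-KO groups were separate and the WT groups met at their edges. It changed by -0.61 (SE 0.18, adjusted p = 0.011) in WT and by -1.01 (SE 0.19, adjusted p = 8.9e-05) in AhR-KO BMDMs. Ndufv3, a small subunit beside the NADH-oxidising site, was at 44.7 to 87.5 CPM (median 61.8) and 33.8 to 43.4 (median 37.4) in WT, and at 55.0 to 125 (median 63.5) and 26.6 to 53.8 (median 29.4) in AhR-KO. Neither genotype showed overlap, although the within-run changes were uneven, from -0.18 to -0.91 in WT and from -0.26 to -1.66 in AhR-KO. The changes were -0.69 (SE 0.22, adjusted p = 0.014) and -1.03 (SE 0.22, adjusted p = 0.00045). Non-overlapping groups with lower values after LPS were found for 11.0% of tested genes in WT and 14.1% in AhR-KO, against 2 and 4 of the 53 members, and with higher values for 11.4% and 14.4%, against none of the members.

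**Figure D2:**
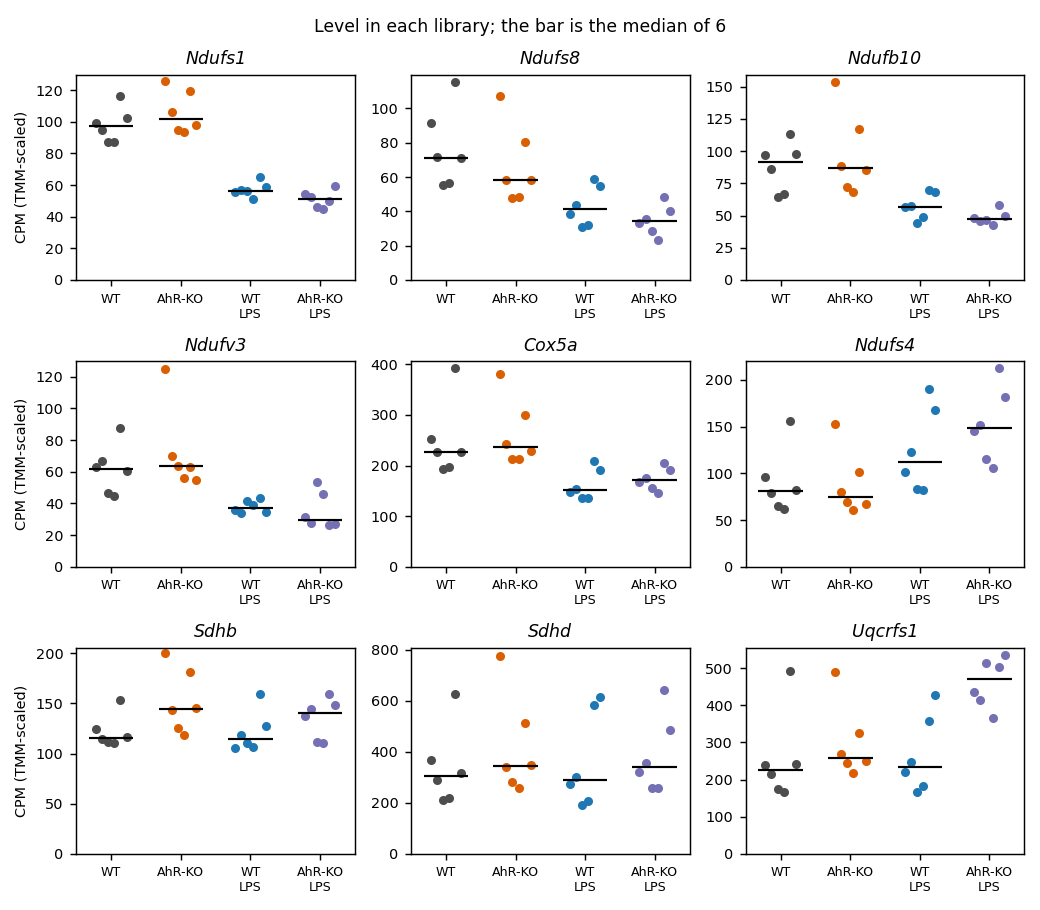
CPM of 9 members (1 panel each; y axis, CPM) in the 4 groups of 6 libraries (x axis), each point 1 library, with a bar at the group median. Ndufs1, Ndufs8, Ndufb10, Ndufv3 and Cox5a sit lower after LPS in both genotypes, Ndufs4 higher, and the AhR-KO libraries after LPS lie highest for Uqcrfs1.

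Outside complex I, Cox5a was the member that fell in both genotypes in the fit with no covariate. It was at 192 to 393 CPM (median 227) and 136 to 210 (median 151) in WT, and at 213 to 382 (median 236) and 147 to 205 (median 171) in AhR-KO, where the groups did not overlap. The log2 changes were -0.61 (SE 0.18, adjusted p = 0.0095) and -0.60 (SE 0.18, adjusted p = 0.0083). Sdha fell in AhR-KO BMDMs by 0.65 on the log2 scale (SE 0.15, adjusted p = 0.0012), and its change in WT was -0.34 (adjusted p = 0.090). Uqcrb, the ubiquinone-binding subunit of complex III, changed by -0.46 in AhR-KO (adjusted p = 0.015, lost without library 19) and by -0.36 in WT (adjusted p = 0.058). Without libraries 19 and 33, 6 members fell and 1 rose in WT (18.1% and 22% of tested genes), and 8 fell and 2 rose in AhR-KO (22.6% and 24.2%), while 35 and 29 of the 53 had a change above 0.

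Ndufs4, an accessory subunit at the NADH arm whose loss destabilises complex I, was the 1 member called higher with LPS in the fit with no covariate, in AhR-KO BMDMs. It was at 61.6 to 156 CPM (median 80.7) and 82.4 to 190 (median 112) in WT without and with LPS, and at 61.0 to 153 (median 74.8) and 105 to 212 (median 148) in AhR-KO. The groups overlapped in both genotypes. The log2 change was 0.78 (SE 0.27, adjusted p = 0.023) in AhR-KO and 0.47 (SE 0.27, adjusted p = 0.19) in WT, and the AhR-KO call was lost with a length offset, with total library size, and when library 27, 28, 36 or 39 was left out. With the length slope it was 0.82 and 0.60 (SE 0.05 each, adjusted p = 1.6e-12 and 6.6e-10).

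With the length slope in the fit, changes were called for many more members and many more genes overall: 18 rose and 17 fell with LPS in WT (30.4% and 31.2% of tested genes), and 7 rose and 27 fell in AhR-KO (32.1% and 33.1%). Among the 32 complex I genes, 10 rose and 12 fell in WT, and 4 rose and 15 fell in AhR-KO. Ndufa7 (0.53 in WT, 0.23 in AhR-KO), Uqcrc2 (0.26, 0.20) and the ATP synthase β subunit Atp5b (0.22, 0.16) rose in both genotypes next to Ndufs4. Ndufa2 (0.36) and Ndufb8 (0.28), accessory subunits of complex I, and Uqcrq (0.34), a small subunit of complex III, rose in WT, and their values in AhR-KO were 0.09, 0.03 and 0.04. Of the 17 that fell in WT, 15 also fell in AhR-KO, the others being Ndufa8 and Ndufa10. Outside complex I these were Cox5a, Sdha, Uqcrb, Cox4i1 and Atp5a1, the WT calls of the last 2 being lost without library 22, and that of Atp5a1 also without library 33. The WT call of Ndufa8 was lost without library 38. For complex IV, 3 of 9 rose and 2 fell in WT, and 6 fell in AhR-KO. These changes were small, since only Ndufs1 in AhR-KO fell past 2-fold (-1.05), beside 17% of tested genes there and 14.4% in WT.

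**Figure D3:**
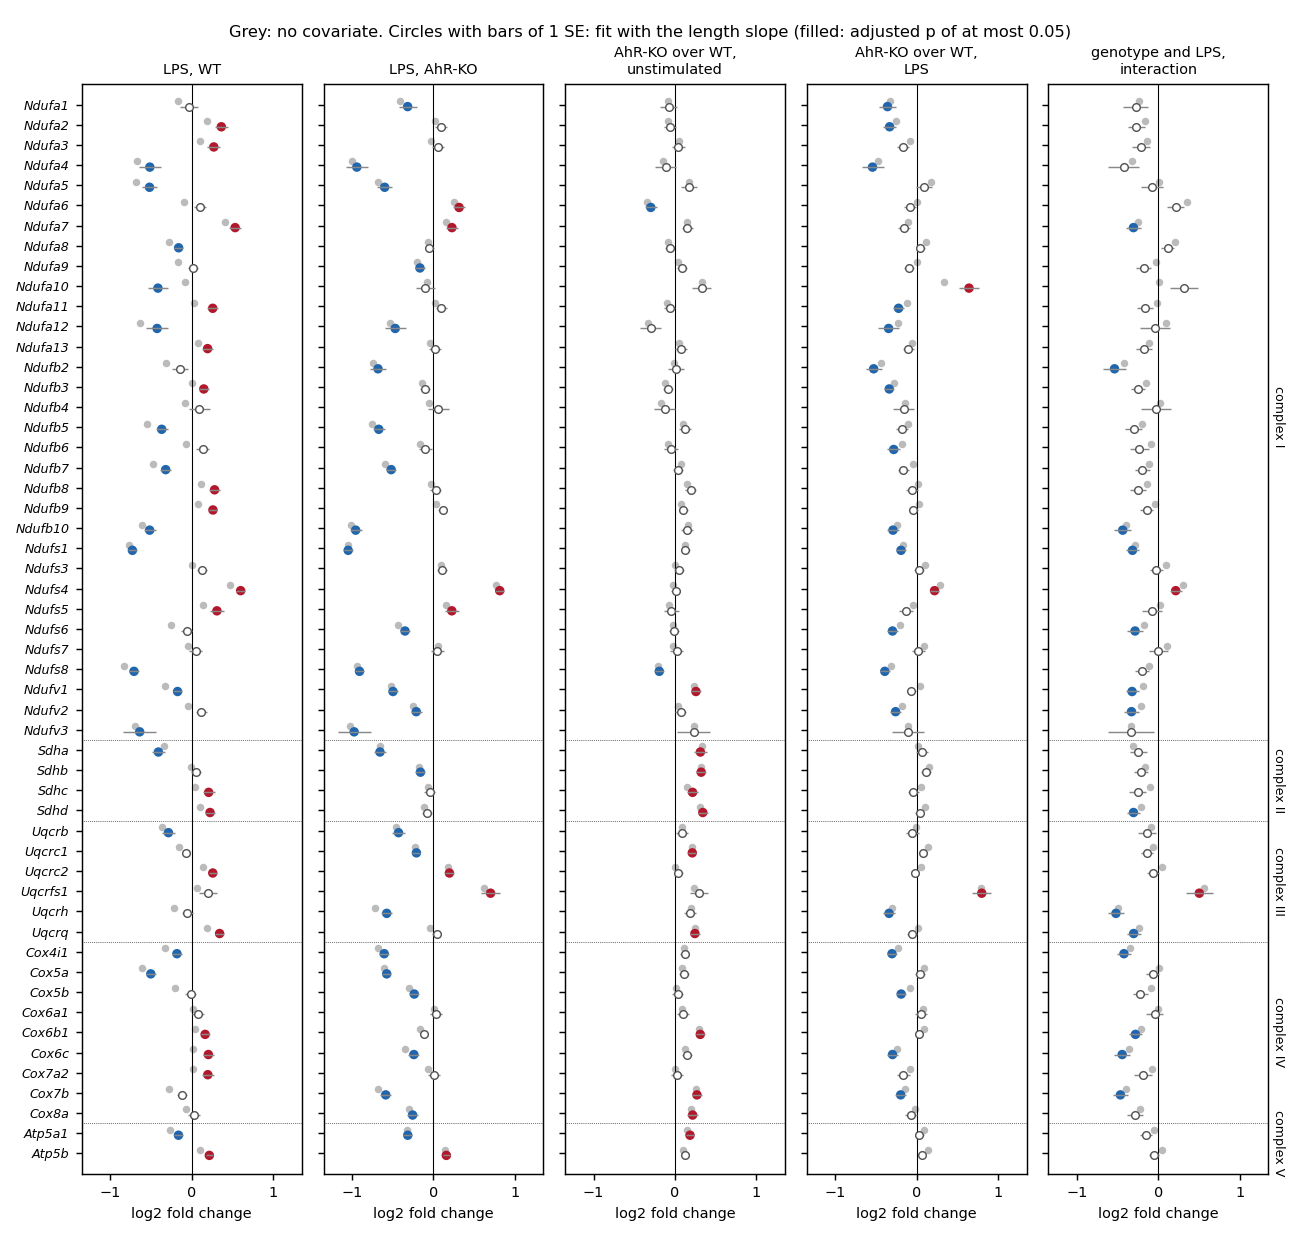
Log2 fold changes of the 53 members (rows, by complex) in 5 comparisons (panels; x axis, log2 fold change). Grey marks are from the fit with no covariate and circles, with bars of 1 SE, from the fit with the length slope, filled where the adjusted p is at most 0.05. Filled circles lie on both sides of 0 in WT with LPS (18 and 17) and mostly below it in AhR-KO (7 and 27).

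By genotype, no member passed the test in the fit with no covariate. In unstimulated BMDMs, 0 of 53 members were called with edgeR, limma-voom or DESeq2, 2 had an unadjusted p below 0.05 (both higher), and 1.83% and 4.29% of tested genes were higher and lower in edgeR (8.57% called in either direction in DESeq2, 6.61% in limma-voom). After LPS, 0 were called with edgeR, 1 with limma-voom and 1 with DESeq2, and 1 had an unadjusted p below 0.05, beside 4.33% and 8.30% of tested genes (16.5% in either direction in DESeq2, 13.2% in limma-voom, and 16.9% with total library size, where 5 members were called). The median log2 difference of the members, AhR-KO minus WT, was 0.08 and -0.04, and single libraries turned both signs. Without LPS it was -0.19 without library 19 and -0.0082 without library 26. With LPS it was 0.10 without library 37, 0.06 without library 38, 5.6e-05 without library 32 and 0.06 without libraries 34 and 38. In the 3 runs the medians were 0.39, 0.13 and -0.36 without LPS and 0.07, 0.09 and -0.18 with it, so that the direction was not shared by the runs. None of the 53 had genotypes without overlap (1.71% and 3.44% of tested genes higher and lower without LPS, 2.59% and 4.53% with it). The genotype comparison without LPS shares its libraries with the unstimulated arms above, and the one after LPS with the stimulated arms.

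With the length slope, 11 members were higher and 2 lower in unstimulated AhR-KO BMDMs, where 7.41% and 9.73% of tested genes were called. All 4 subunits of succinate dehydrogenase were among the 11. Sdha, the catalytic flavoprotein, was at 143 to 232 CPM (median 216) in WT and 183 to 286 (median 265) in AhR-KO. Sdhb, the iron-sulfur subunit, was at 111 to 153 (median 116) and 119 to 200 (median 144). The membrane anchors Sdhc and Sdhd were at 179 to 611 (median 248.8) against 208 to 598 (median 254), and at 210 to 627 (median 303) against 257 to 776 (median 344). The genotypes overlapped for all 4.

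With the slope the log2 differences were 0.31 for Sdha (SE 0.07, adjusted p = 0.0043), 0.32 for Sdhb (SE 0.06, adjusted p = 0.00049), 0.22 for Sdhc (SE 0.07, adjusted p = 0.039, lost in 8 of the 24 fits without 1 library) and 0.34 for Sdhd (SE 0.06, adjusted p = 0.00018). Without it they were 0.33, 0.32, 0.15 and 0.31 and were not called (adjusted p = 0.32, 0.29, 1.0 and 0.97). In the 3 runs, without a covariate, Sdha was higher in each (0.13, 0.36 and 0.50) and so was Sdhb (0.50, 0.14 and 0.28), while Sdhc (0.65, 0.24 and -0.36) and Sdhd (0.65, 0.32 and -0.07) were below 0 in run 3. The other members called higher were Cox6b1 (0.31), Ndufv1 (0.26), Uqcrc1 (0.21), Uqcrq (0.24), Cox7b (0.27), Atp5a1 (0.18) and Cox8a (0.22, lost in 6 such fits). Ndufa6 (-0.30) and Ndufs8 (-0.19) were lower, the latter not called without library 17, 27 or 28. Without libraries 19 and 33, 14 were higher and 2 lower (6.77% and 8.37% of tested genes).

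After LPS the balance was the other way in the fit with the slope: 3 members were higher and 18 lower in AhR-KO BMDMs, against 16.7% and 18.6% of tested genes, and 13 of the 18 belonged to complex I. The runs did not show this balance without the slope. With no covariate 11 members were higher and 11 lower in all 3 runs, and with a length offset on merged exons 16 and 8. Uqcrfs1, the Rieske iron-sulfur protein of complex III, showed the largest difference among the members. It was at 166 to 492 CPM (median 227) in unstimulated WT, at 217 to 489 (median 259) in unstimulated AhR-KO, at 167 to 427 (median 233) in LPS-stimulated WT and at 365 to 535 (median 470) in LPS-stimulated AhR-KO BMDMs. The lowest stimulated AhR-KO library lay above the WT median, but the 2 groups overlapped. AhR-KO minus WT after LPS was 0.80 with the slope (SE 0.12, adjusted p = 9.1e-06) and 0.79 without it (SE 0.27, adjusted p = 0.055), and 0.87, 1.32 and 0.41 in the runs. It was the member called by limma-voom and DESeq2.

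Ndufa10 (0.64, adjusted p = 0.00018) and Ndufs4 (0.22, adjusted p = 0.0020) were the other members that were higher after LPS with the slope. Ndufa10, whose level changed most per unit of slope among the members, had 0.34 without it (adjusted p = 0.80). The lower ones included Ndufs8 (-0.39, adjusted p = 1.6e-05), Ndufb3 (-0.34) and Ndufb2 (-0.53) of complex I, and Ndufa4 (-0.54), counted with complex I. Others were Uqcrh (-0.34), the hinge protein of complex III, and Cox4i1 (-0.30), Cox6c (-0.30), Cox7b (-0.20) and Cox5b (-0.19) of complex IV. Cox5b was lost without library 21, 30 or 40 and Cox7b without library 23, 29 or 37.

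The response to LPS itself differed between genotypes for 16 members in the fit with the slope. The interaction, the LPS change in AhR-KO minus that in WT, was below 0 for 14 of them and above 0 for 2, against 8.85% and 8.49% of tested genes, and its median over the members was -0.21 (0.01 over all genes). Without the slope the median was -0.12, but 0.10 without library 19, 0.0060 without library 37 and 0.01 without libraries 34 and 38, so that its direction was not stable. In that fit 0 members were called with edgeR, limma-voom or DESeq2, none with an unadjusted p below 0.05 in edgeR, beside 2.34% and 1.95% of tested genes (6.78% in either direction in DESeq2, 4.22% in limma-voom). Cox4i1 was at 541 to 1567 CPM (median 784) and 399 to 1123 (median 530) in WT without and with LPS, and at 557 to 1861 (median 723) and 373 to 912 (median 560) in AhR-KO. All these ranges overlapped. Its LPS change with the slope was -0.18 in WT and -0.60 in AhR-KO, a difference of -0.42 (SE 0.08, adjusted p = 0.00086), and without the slope -0.34 (SE 0.47, adjusted p = 0.97).

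Uqcrh was at 135 to 430 CPM (median 210) and 118 to 317 (median 168) in WT, and at 148 to 580 (median 195) and 116 to 235 (median 152) in AhR-KO. Its interaction was -0.52 (SE 0.10, adjusted p = 0.00075) with the slope and -0.50 (SE 0.48, adjusted p = 0.87) without it. The within-run values were -0.75, -0.17 and -0.17 for Uqcrh and -0.45, -0.27 and -0.05 for Cox4i1, below 0 in each run and uneven in size. Cox7b (-0.47), Cox6c (-0.44) and Cox6b1 (-0.28) of complex IV, Ndufb10 (-0.44), Ndufb2 (-0.54), Ndufs1 (-0.32) and Ndufv1 (-0.32) of complex I, and Sdhd (-0.30) pointed the same way with the slope. Uqcrfs1 (0.50, adjusted p = 0.034) and Ndufs4 (0.21, adjusted p = 0.049) had the opposite sign, and these calls were lost in 11 and 22 of the 24 fits that left out 1 library.

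Of 10 tissue and inducible isoforms of the subunits on the list, 5 passed the filter on low counts. With LPS and no covariate 1 rose and 3 fell in WT, and 1 rose and 2 fell in AhR-KO. AA467197 (also called Nmes1), an LPS-inducible paralog of Ndufa4 (a member named for complex I and counted there, now known to bind complex IV), was at 174 to 552 CPM (median 372) and 1313 to 3439 (median 1874) in WT without and with LPS, and at 305 to 543 (median 366) and 2638 to 4844 (median 2964) in AhR-KO. Stimulated and unstimulated libraries did not overlap. It rose by 2.65 log2 units (SE 0.29, adjusted p = 9.8e-08) in WT and 3.07 (SE 0.29, adjusted p = 7.9e-09) in AhR-KO, and AhR-KO minus WT after LPS was 0.61 (adjusted p = 0.17) without and 0.58 (adjusted p = 0.00025) with the slope. Ndufa4 went from 44.4 to 153 CPM (median 60.7) to 25.6 to 83.9 (median 35.3) in WT and from 41.6 to 122 (median 49.4) to 22 to 52 (median 28) in AhR-KO. Its log2 change was -0.67 (adjusted p = 0.13) and -1.0 (adjusted p = 0.021), and within the 3 runs it was -0.67, -0.83 and -0.46 in WT. The 2 paralogs thus had changes of opposite sign in both genotypes. Ndufa4 was called in AhR-KO alone, a call lost without library 19 or 31, and its groups overlapped.

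Cox6b2, known from testis, fell from a median of 4.26 to 0.220 CPM in WT and from 5.51 to 0.251 in AhR-KO (log2 change -3.98 and -4.59, adjusted p = 1.8e-07 and 1.9e-08), with no overlap. Cox7a1, the heart and muscle isoform, fell from a median of 5.22 to 1.10 CPM and from 6.04 to 1.58 (-1.77 and -2.41, adjusted p = 0.0016 and 5.8e-05). Their ubiquitous counterparts Cox6b1 and Cox7a2 were not called in either genotype in the fit with no covariate. Cox4i2, the counterpart of Cox4i1 known from lung, was low throughout. It was at 0.590 to 0.903 CPM (median 0.761) and 0 to 0.318 (median 0.103) in WT without and with LPS, and at 0 to 0.272 (median 0.0800) and 0 to 0.271 (median 0.0388) in AhR-KO. The WT groups did not overlap and the AhR-KO groups did. Its log2 change was -2.68 (SE 0.96, adjusted p = 0.030) in WT, a call lost with no filter and without library 21, 29 or 30, and -0.46 (adjusted p = 0.75) in AhR-KO. Cox6a2, a heart and muscle isoform with group medians of 0.198 to 0.361 CPM, was not called (0.67 and 0.54, adjusted p = 0.24 and 0.34).

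**Figure D4:**
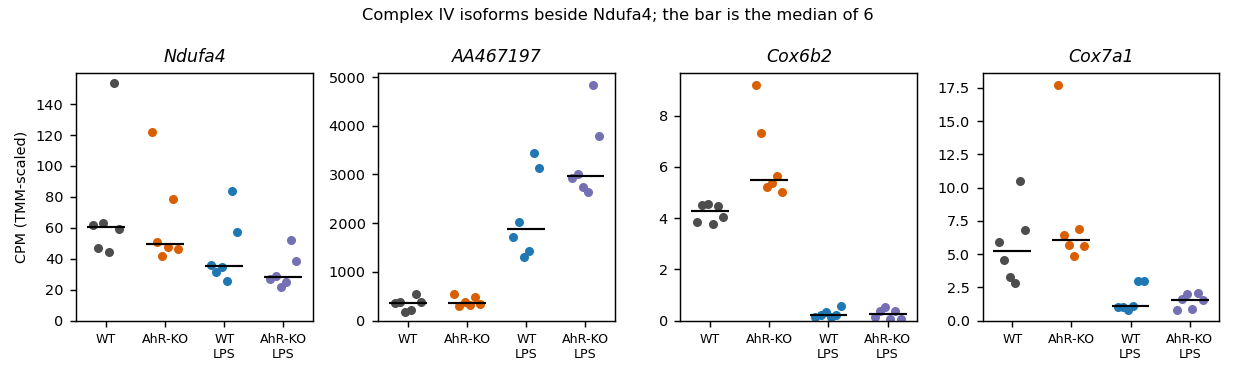
CPM (y axis) of Ndufa4, AA467197, Cox6b2 and Cox7a1 (panels) in the 4 groups of 6 libraries (x axis), each point 1 library with the group median. AA467197 lies above 1313 CPM in all LPS libraries and below 552 in the others, while Cox6b2 and Cox7a1 drop with LPS.

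Genes that build or surround the chain were counted in the same fits, in which 19.7% of tested genes rose and 18.3% fell with LPS in WT, and 22.1% rose and 22.6% fell in AhR-KO, with no covariate. Of 26 other nuclear subunits and chain proteins, 3 fell in WT (11.5%) and 7 fell and 1 rose in AhR-KO (26.9% and 3.85%). The c-ring gene Atp5g3 fell by 0.77 and 0.92 on the log2 scale (the WT call lost without library 22, 29, 30 or 33) and Atpif1, the ATP synthase inhibitory factor, by 1.01 and 1.21. Cycs, the cytochrome c that carries electrons from complex III to complex IV, rose in AhR-KO by 1.05 (adjusted p = 0.00069), had 0.33 in WT (adjusted p = 0.29), and was higher in AhR-KO after LPS (0.74, adjusted p = 0.037), a call lost in 8 of the 24 fits without 1 library. Of the 13 mitochondrially encoded subunits, mt-Nd1 alone was called (-0.68 in AhR-KO, adjusted p = 0.0090).

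Of 46 assembly factors, 10 rose and 5 fell in WT (21.7% and 10.9%) and 11 rose and 7 fell in AhR-KO (23.9% and 15.2%), so the share that rose was close to that of all tested genes. Ttc19, which clears fragments of the Rieske protein from complex III, rose by 1.71 and 2.37, and Sco1, a copper chaperone of complex IV, rose by 0.72 and 1.64 and was higher in AhR-KO after LPS (1.01, adjusted p = 0.0038). Atpaf1, an assembly factor of ATP synthase, fell by 0.52 (lost without library 21, 22, 30 or 33) and 1.37 and was lower in AhR-KO after LPS (-0.78, adjusted p = 0.0052). Its WT call was also lost with no filter and with a length offset on merged exons. The genotype call of Atpaf1 was lost with either length offset. The citrate cycle, which delivers NADH and succinate to the chain, had 6 of 16 genes lower in WT (37.5%) and 7 lower and 2 higher in AhR-KO (43.8% and 12.5%), among them Idh2 (-1.69 and -2.17) and Suclg2 (-1.96 and -3.31). Among 18 regulators of mitochondrial biogenesis 3 rose and 4 fell in WT (16.7% and 22.2%), and 3 rose and 6 fell in AhR-KO (16.7% and 33.3%). The receptor Esrra rose (0.88 and 1.37) and the mitochondrial transcription factor Tfb2m fell (-1.30 and -1.80), and the ETS subunits Gabpb1 (0.82 and 0.88) and Gabpa (-0.43 and -0.46) moved in opposite directions. With a length offset the calls of Esrra in WT, of Gabpb1 in both genotypes and of Gabpa in both were lost, on merged exons, on merged exons and on principal transcripts respectively. Nrf1 was at -0.18 and -0.15, not called. Cytosolic ribosomal protein genes fell in larger number, 49 of 77 in WT (63.6%) and 50 in AhR-KO (64.9%), with 1 rising in each.

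**Figure D5:**
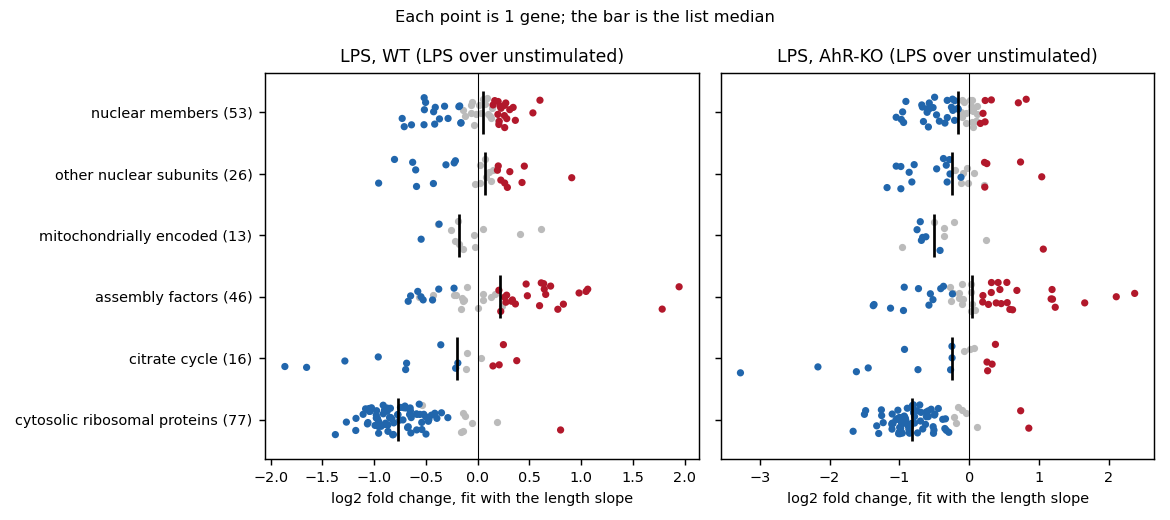
Log2 fold change with LPS (x axis) in WT and AhR-KO BMDMs (panels) for the genes of 6 lists (rows) in the fit with the length slope, each point 1 gene, coloured where the adjusted p is at most 0.05 (red higher, blue lower), with a bar at the list median. The respiratory chain members spread around medians of 0.05 and -0.16, and the cytosolic ribosomal protein genes lie mostly below 0.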

How the data were processed

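The members and gene lists were chosen with earlier results of these data known. The deposited values are raw counts per gene: per the study, reads were aligned to mm10 with GSNAP, and the authors counted uniquely aligned reads with featureCounts 2.0.1 and Ensembl annotation (bcl2fastq 2.20.0 in the submitters' notes). The table also held 92 spike-in sequences with 1 count in all, which were left out.

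From these counts (45106052 to 76992663 per library), edgeR 4.0.16 in R 4.3.3 gave robust quasi-likelihood F-tests with TMM factors, filterByExpr (16593 genes) and Benjamini-Hochberg adjustment over all tested genes. All 24 libraries entered 1 fit with a coefficient per group, without and with each library's length slope as a covariate. A gene was called at an adjusted p of at most 0.05. Groups came from the sample titles, libraries are numbered as there (17 to 40), and runs are 8 consecutive numbers with 2 libraries per group, which the labels do not call batches. Fold changes within runs used mean log2 CPM with 0.1 CPM added. The slope was compared by exact permutation. Sequences and motifs were read in Python 3.11.15 (numpy 2.4.6, pandas 2.3.3, scipy 1.17.1), and figures drawn with matplotlib 3.10.9.

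Tested on simulated data over 16593 genes, 200 changed by 2 log2 units, the fit with no covariate recovered 80.5% for genotype without LPS, 88.0% for genotype with LPS, 83.0% for LPS in WT, 84.5% for LPS in AhR-KO and 76.0% for the interaction. At 0.5 log2 units it recovered 8.0%, 4.0%, 2.5%, 5.0% and 0%, and the fit with the slope 30.5%, 30.0%, 23.5%, 24.0% and 2.5%. How often a change of this size is missed among the members was not tested.

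Named were the 5 called members with the smallest p per direction, comparison and fit, members past 2-fold, the highest and lowest per kb in each complex, members without overlap between groups, and from the other lists the regulators, isoforms and mitochondrial genes plus up to 3 called genes per direction. Ndufa2, Ndufa4, Ndufa5, Ndufa8, Ndufb5, Ndufb6, Sdhc, Cox7a2 and Cox8a fall outside this rule and were named after their values or promoters were seen. Alternatives were DESeq2 1.42.0, limma-voom (limma 3.58.1), DESeq2 size factors, total library size, no filter, a mean of at least 1 CPM, the 12 libraries compared, a length offset, a run factor, a 2-fold threshold and leaving out each library, and, chosen after seeing the data, an offset on principal transcripts and fits without libraries 19 and 33 or 34 and 38.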

Additional observations from a re-analysis of the deposited data

Results flagged for a closer look

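In 140 groups of 6 libraries tested, the highest or lowest library lay beyond the usual limit for its gap to the next in 23, and chance alone marks about 1 in 20. Of the 23, 22 came from libraries 33 and 19, the libraries with the lowest length slopes. In library 33 (WT, unstimulated) the CPM were 393 for Cox5a, 156 for Ndufs4, 153 for Sdhb, 413 for Ndufv1, 151 for Ndufa6, 492 for Uqcrfs1, 118 for Ndufb3, 92.6 for Ndufb2, 488 for Uqcrc2, 446 for Cox6c, 457 for Ndufb8, 19.2 for Ndufb4, 88.3 for Cox5b and 1970.2 for Atp5a1, each the highest of its group, and 143 for Sdha, the lowest. In library 19 (AhR-KO, unstimulated) they were 125 for Ndufv3, 123 for Ndufa6, 580.5 for Uqcrh, 218 for Ndufa7, 525 for Cox6c and 93.7 for Cox5b, the highest, and 183 for Sdha, the lowest. The remaining one was Uqcrb in library 37 (WT, LPS), the highest of its group at 43.2 CPM.

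The LPS response differed between genotypes, by the interaction term in the fit with the length slope, for 14 of the members named. The interaction was -0.32 for Ndufs1, -0.44 for Ndufb10, -0.28 for Cox6b1, -0.30 for Sdhd, -0.32 for Ndufv1, -0.54 for Ndufb2, -0.42 for Cox4i1, -0.52 for Uqcrh, -0.31 for Ndufa7, -0.30 for Uqcrq, -0.47 for Cox7b and -0.44 for Cox6c. It was 0.21 for Ndufs4 and 0.50 for Uqcrfs1. None of them passed the interaction test in the fit with no covariate.

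Libraries 34 (WT, unstimulated) and 38 (WT, LPS) had 2 to 4 counts over 4 Y-linked genes, against 8596 to 15082 in the other 22.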

How the results depend on the processing

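Counts of called members depended on the length slope in the fit, the scaling and the fold threshold. For genotype without LPS, 13 members were called with the slope, 1 (Sdha) with a length offset and 2 (Sdha, Sdhb) with the principal-transcript offset, against 0 without. For genotype after LPS, 21 were called with the slope and 5 with total library size. There 1, Uqcrfs1, was called with either length offset, the run factor, a mean of at least 1 CPM, the 12 libraries compared, limma-voom, DESeq2, and without libraries 19 and 33 or 34 and 38 or any of 19, 33, 37 and 38. For LPS in WT, 35 were called with the slope, 12 with the run factor, 21 with total library size and 10 with the principal-transcript offset, against 6. For LPS in AhR-KO, 34, 19, 32 and 18 were called in those fits, against 11, and total library size put the median at -0.64. The interaction had 16 calls with the slope. Total library size shifted the median over all genes to -0.09 and -0.26 for genotype, -0.31 and -0.52 for LPS and -0.18 for the interaction. A 2-fold threshold left 0 members for LPS in WT and 3 in AhR-KO, and with the slope 1 in AhR-KO and 0 in the 4 other comparisons.

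Leaving out 1 library gave, in the order genotype without LPS, genotype after LPS, LPS in WT, LPS in AhR-KO and interaction, 0 to 0, 0 to 1, 5 to 9, 8 to 12 and 0 to 0 called members. The medians ran from -0.19 to 0.29, -0.20 to 0.10, -0.20 to 0.14, -0.32 to 0.07 and -0.39 to 0.10, and turned without library 19, 26, 32, 33, 37 or 38. With the slope the ranges were 11 to 16, 19 to 24, 33 to 37, 31 to 35 and 13 to 21 members, and medians of 0.086 to 0.13, -0.14 to -0.072, 0.016 to 0.079, -0.18 to -0.13 and -0.25 to -0.20, with no change of sign. Over the members and the named isoforms, mitochondrial genes, other subunits, assembly factors, citrate cycle genes and regulators, 31 of 83 calls with no covariate and 50 of 245 with the slope were lost in some setting other than the 2-fold threshold. Dlst and Mdh2, higher with LPS in AhR-KO, turned to -0.16 and -0.11 with total library size. Group differences in length slope ran from -0.049 to 0.082, -0.091 to 0.0096, -0.0066 to 0.11 and -0.068 to 0.052, and the one for LPS in AhR-KO, 0.0022, was -0.00769 over genes of at least 10 CPM and -0.042 without genes under 500 bases. No paired analysis was possible because no library number is shared by 2 groups and the labels name no animal, so that it is unknown whether groups share animals; the run factor groups libraries and pairs none. The cause of these dependencies was not tested.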
